A study of Mus musculus with 96 samples.

Results

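Cholesterol and fatty acid synthesis were followed through 28 genes in erythroid progenitors of the mouse fetal liver. Of these genes, 17 encode enzymes of cholesterol synthesis, 4 regulate the pathway through sterol regulatory element-binding proteins (SREBPs), 3 make palmitate from citrate, 3 lengthen or desaturate fatty acids and 1, Mgll, encodes monoglyceride lipase. All 28 were found by symbol in a table of 49466 genes, 20754 of them with reads. Scd1 and Mgll were chosen by their measured levels, which in CFUE cells were far above those in BFUE cells, and the other 26 by pathway. The values of Scd1 and Mgll across the gates are therefore a description and support nothing.

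Single cells came from livers of C57/Bl6J embryos at embryonic day 14.5, after depletion of cells bearing lymphoid, myeloid or mature erythroid surface markers, Sca-1 or CD41, and their full-length cDNA was sequenced by Smart-seq2 in 1 plate of 96 wells. Fluorescence of Kit, CD71 and CD24 set 4 gates of 24 wells. BFUE is the gate of burst-forming units, early progenitors committed to red cells, and CFUE the gate of colony-forming units, their later descendants. The lower and the upper intermediate gates are labelled with CD71 and CD24 levels of 25 to 35% and 50 to 60%, without saying of what. Since no animal or pool is named and wells are single cells, each gate is 1 sample. Differences between gates thus lack any check by replicates, and no test could be run. Each gate also occupied 3 plate columns of its own, so gate and plate column cannot be told apart.

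Levels are given in CPM, counts scaled to a total of 1000000 reads, from counts summed over the wells of a group, with exact 95% Poisson intervals, and ratios have exact 95% conditional binomial intervals. Both cover counting error only, and reads without molecular identifiers are not independent molecules. A gene was measured in a comparison at 10 CPM or more in either group, and called higher or lower at 1.5-fold or more. CPM is a share of a cell's reads, so amounts of RNA per cell are not known. The 91 wells kept held 947458 to 3785903 reads each. Of the 23 BFUE wells kept, 8 had 1036 to 2202 CPM of the stem cell transcript Cd34, while the other 15 had at most 5.16 CPM, and a division at 100 CPM separated them. The 8 Cd34-high wells held 2849 CPM of 6 neutrophil and monocyte markers and 810.03 CPM of 5 lymphoid markers, against 39.4 and 1.37 CPM in the 15 Cd34-low wells. In the Cd34-high wells 4 of the 6 and 2 of the 5 reached 10 CPM, and Elane and Dntt had no read. Single Cd34-high wells ran between 350 and 7029 CPM of the first list and between 0.576 and 1579 CPM of the second. The 7 erythroid markers summed to 128 CPM in Cd34-high wells, against 1449 CPM in Cd34-low wells. The 5 megakaryocyte markers summed to 180 CPM in Cd34-low wells and 61.2 CPM in Cd34-high wells. In Cd34-low wells 3 of these 5 reached 10 CPM, Pf4 had no read, and the highest well held 973 CPM. Their sums were 12.9 and 19.4 CPM in the lower and upper intermediate gates and 24.8 CPM in CFUE. CFUE cells were set against the Cd34-low wells as well as against the whole gate.

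A pair of wells stood apart in the genes described here. CFUE well D10 had 5.28 CPM of the 17 cholesterol enzymes together, against a median of 610.4 CPM in the other 22 CFUE wells, and had reads in 13 of the 28 genes, against a median of 25. It held 6361 genes, 5.14% of its reads in mitochondrial genes and 889.8 CPM of 9 hepatoblast markers, against medians of 9293 genes, 1.72% and 98.7 CPM. BFUE well A2, in the Cd34-low group, had the highest sum of the cholesterol enzymes of any well, 1217 CPM, against a median of 500.6 CPM in the other 14 Cd34-low wells. It also had 1665 CPM of hepatoblast markers, against 149.9 CPM. Hepatoblasts are the liver's own precursor cells and synthesize cholesterol, and the part of their RNA in these values was not tested. Summed hepatoblast markers were 254 CPM in Cd34-low BFUE, 92.8 CPM in the lower intermediate gate, 152 CPM in the upper one and 151 CPM in CFUE wells. No macrophage marker of 5 had a read in CFUE wells, and their sum was at most 10.02 CPM in every other group.

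Cholesterol is built from acetyl-CoA through mevalonate, isoprenoid diphosphates, squalene and lanosterol, and fatty acids are built from the same precursor through malonyl-CoA. Both routes are controlled by SREBPs, transcription factors held in the endoplasmic reticulum until Scap carries them to the Golgi for cleavage. When sterols are plentiful, Insig proteins retain Scap and the SREBPs stay inactive. Erythroid progenitors divide rapidly and need new membrane, and the plasma membrane of the mature red cell is rich in cholesterol.

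Promoter sequence was available for 23 of the 28 genes from RefSeq on GRCm38.p6, in windows from 250 bases before to 50 bases after a transcript's start. Fdps, Fdft1, Sqle, Scd1 and Scd2 had none. SREBPs bind together with NF-Y, which recognizes CCAAT, and with Sp1, which binds GC boxes. Printed here are the promoters of Hmgcs1 at the pathway's entry, of Cyp51 and Insig1, which were higher in the lower intermediate gate than in Cd34-low BFUE, and of Mgll, the first of 2 windows. Each is the 250 bases before the RefSeq start, 5' to 3' on the gene's strand. In the GENCODE M21 annotation Insig1 starts at 28071363 and Cyp51 at 4104746. The last bases of these 2 stretches, with the Cyp51 CCAAT box, therefore lie inside the genes as annotated there. Capitals mark TCACNCCAC, a form of sterol regulatory element, CCAAT or its reverse complement ATTGG, and the E-box CACGTG.
Hmgcs1, chr13:119690101-119690350, plus strand: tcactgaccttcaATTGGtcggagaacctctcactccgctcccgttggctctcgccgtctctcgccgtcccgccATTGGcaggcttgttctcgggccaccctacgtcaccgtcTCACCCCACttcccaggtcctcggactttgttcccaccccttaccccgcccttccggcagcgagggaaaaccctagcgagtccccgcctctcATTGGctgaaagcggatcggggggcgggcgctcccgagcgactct
Cyp51, chr5:4104698-4104947, minus strand: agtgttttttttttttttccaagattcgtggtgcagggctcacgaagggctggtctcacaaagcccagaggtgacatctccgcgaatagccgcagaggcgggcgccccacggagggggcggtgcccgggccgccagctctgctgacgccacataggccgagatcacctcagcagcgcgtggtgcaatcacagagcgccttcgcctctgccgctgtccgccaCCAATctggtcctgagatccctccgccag
Insig1, chr5:28071162-28071411, plus strand: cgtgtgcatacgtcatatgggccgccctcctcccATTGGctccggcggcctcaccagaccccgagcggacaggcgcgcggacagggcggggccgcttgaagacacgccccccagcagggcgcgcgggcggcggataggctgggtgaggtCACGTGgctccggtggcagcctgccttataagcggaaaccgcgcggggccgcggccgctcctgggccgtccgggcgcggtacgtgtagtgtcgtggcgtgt
Mgll, chr6:88724162-88724411, plus strand: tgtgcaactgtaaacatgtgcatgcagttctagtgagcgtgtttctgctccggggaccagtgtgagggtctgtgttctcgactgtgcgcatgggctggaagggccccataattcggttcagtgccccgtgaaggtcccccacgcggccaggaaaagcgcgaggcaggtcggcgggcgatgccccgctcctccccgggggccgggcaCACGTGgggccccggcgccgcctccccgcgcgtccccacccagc
The Hmgcs1 stretch held 1 sterol element and 3 CCAAT boxes, the Cyp51 stretch 1 CCAAT box, the Insig1 stretch 1 CCAAT box and 1 E-box, and the Mgll stretch 1 E-box and 0 CCAAT boxes. Over the whole windows and on both strands, CCAAT was present in 19 of the 23 genes (82.6%), against 41.1% of all 27025 genes with a window and 43.6% of the 6913 among them that reached 10 CPM in any gate. Neither Mgll nor Scap, Acaca and Elovl6 had it. The Sp1 box GGGCGG was present in 19 of the 23 (82.6%), against 38.2% of all genes and 70.7% of those at 10 CPM. CACGTG was found in 6 (26.1%), namely Hsd17b7, Sc5d, Dhcr7, Insig1, Scap and Mgll, against 8.09% of all genes and 13.1% of those at 10 CPM. TCACNCCAC was found in Hmgcs1 alone of the 23, against 1.44% of all genes. AGATAA, a site of GATA factors, was in 0 of the 23, against 12.7% of all genes and 7.58% of those at 10 CPM. These matches describe letters in a window and show no binding.

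Set against Cd34-low BFUE cells, the lower intermediate gate had higher levels of many of the pathway's genes. Of 27 genes measured, 12 were higher (44.4%), where 9.54% of all 8163 measured genes were, and 1, Mvk, was lower, where 17.7% of all genes were. The higher genes were Mvd, Fdps, Cyp51, Nsdhl, Hsd17b7 and Sc5d of cholesterol synthesis, the regulators Insig1 and Srebf1, and Fasn, Elovl6, Scd1 and Scd2 of fatty acid synthesis. The median log2 ratio of the 27 was 0.24, beside -0.05 over all genes measured. Without Scd1 and Mgll, 11 of 26 were higher. Without BFUE well A2 the same counts of 12 and 1 were found, with a median of 0.40. Without D3, the deepest Cd34-low well with 3785903 reads, 9 were higher and 1 lower, as Nsdhl, Srebf1 and Scd2 were short of 1.5-fold. Over all wells left out in turn, 9 to 13 were higher and 1 to 2 lower. In plate rows A to D 9 of 26 were higher, where 14.9% of all genes were. In rows E to H 10 of 27 were, where 14.3% of all genes were. Only Cyp51, Hsd17b7, Insig1, Fasn and Elovl6 were called higher in both sets of rows. In rows A to D Fdps, Scd2, Scd1 and Srebf1 were short of 1.5-fold, at log2 ratios of 0.18, 0.31, 0.42 and 0.48.

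At the later steps few of these genes differed, and few of all genes did. In the upper against the lower intermediate gate, 2 of 27 were higher (Scd1 and Mgll, 7.41%), where 7.34% of all genes were. There 2 were lower (Insig1 and Scap, 7.41%), where 9.27% were. In CFUE against the upper intermediate gate, 2 of 26 were higher (Fdft1 and Mgll, 7.69%), where 7.98% of all genes were. Of the same 26, 4 were lower (Mvd, Lss, Fasn and Acaca, 15.4%), where 9.70% were. Without Scd1 and Mgll, 0 of 25 were higher at the first of these steps and 1 of 24 (4.17%) at the second. Leaving out each well in turn gave 1 to 4 lower genes between the intermediates. The count was 4 without upper intermediate well B9 and 1 without upper intermediate well A7. It was also 1 without any of the lower intermediate wells B5, B6, C4, C5, E6, F4 and F6.

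Across the whole span, CFUE wells had 7 of 27 genes higher than Cd34-low BFUE wells (Fdps, Fdft1, Cyp51, Nsdhl, Hsd17b7, Scd1 and Mgll), where 13.6% of all genes were, and 6 lower (Hmgcs1, Mvk, Scap, Fasn, Acaca and Acly), where 24.9% were. The contrast that chose Scd1 and Mgll, CFUE against all BFUE wells, had 5 of 27 higher (Fdps, Fdft1, Cyp51, Scd1 and Mgll), where 13.7% of all genes were, and 7 lower (Hmgcs1, Mvk, Mvd, Scap, Fasn, Acaca and Acly), where 29.6% were. Leaving out CFUE well D10 gave the same genes in both. Without Scd1 and Mgll, 5 of 25 genes were higher than in Cd34-low BFUE and 3 of 25 higher than in all BFUE wells. Without Cd34-low well D3, 5 of 27 were higher and 5 lower than in Cd34-low BFUE, with Fdft1, Nsdhl, Hsd17b7 and Acly no longer called and Elovl6 called higher. The median of all genes in CFUE against all BFUE wells was -0.14 on the log2 scale and -0.01 with TMM factors, a shift that every ratio of that contrast shares.

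The mevalonate enzymes did not share a course. Hmgcs1 (chr13:119690379-119708260, GRCm38), which makes HMG-CoA at the head of the pathway, was at 48.04 CPM in Cd34-low BFUE, 37.3 in the lower and 26.7 in the upper intermediate gate, and 20.4 CPM in CFUE. Single CFUE wells ran between 0 and 79.4 CPM with a median of 13.5 CPM, and Cd34-low BFUE wells between 0 and 103 CPM with a median of 45.9 CPM, so the wells overlapped widely. The sums differed 2.35-fold, lower in CFUE (interval 2.14 to 2.58). In plate rows A to D the log2 ratio was -2.09, but in rows E to H -0.35, short of 1.5-fold. Hmgcs1 shares 12.1% of its exonic bases with a gene on the opposite strand.

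Mvk (chr5:114444269-114460591), the kinase of mevalonate, was lower in each later gate. It had 19.7 CPM in Cd34-low BFUE and 6.47, 9.47 and 6.71 CPM in the lower, the upper and the CFUE gate. Reads were present in 9 of 23 CFUE wells and in 11 of 15 Cd34-low BFUE wells, or in 7 and 10 wells after thinning each to 500000 reads. CFUE was 2.94-fold lower than Cd34-low BFUE (interval 2.52 to 3.44), and 1.5-fold or more lower in all 9 recomputations with other settings or wells.

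Mvd, which decarboxylates the diphosphate of mevalonate to isopentenyl diphosphate, was detected in few BFUE and CFUE wells. It had 32.5 CPM in Cd34-high BFUE, 4.20 in Cd34-low BFUE, 14.1 and 14.2 in the intermediates and 3.22 CPM in CFUE. A median well held 0 CPM in CFUE, where 5 of 23 wells had a read, and 7.75 CPM in the upper intermediate gate, where 16 of 24 had one. CFUE was 4.43-fold lower than the upper intermediate gate (interval 3.61 to 5.48). Fdps, the synthase of farnesyl diphosphate, was at 14.3 CPM in Cd34-low BFUE and at 24.6, 23.9 and 23.1 CPM in the lower, the upper and the CFUE gate. It shares 26.7% of its exonic bases with Gm43738 on the same strand, so its count is uncertain. The phosphomevalonate kinase Pmvk ranged between 37.9 and 55.8 CPM over the 5 groups and the isomerase Idi1 between 14.1 and 23.3 CPM, and neither was called in any of the 6 comparisons.

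**Figure D1:**
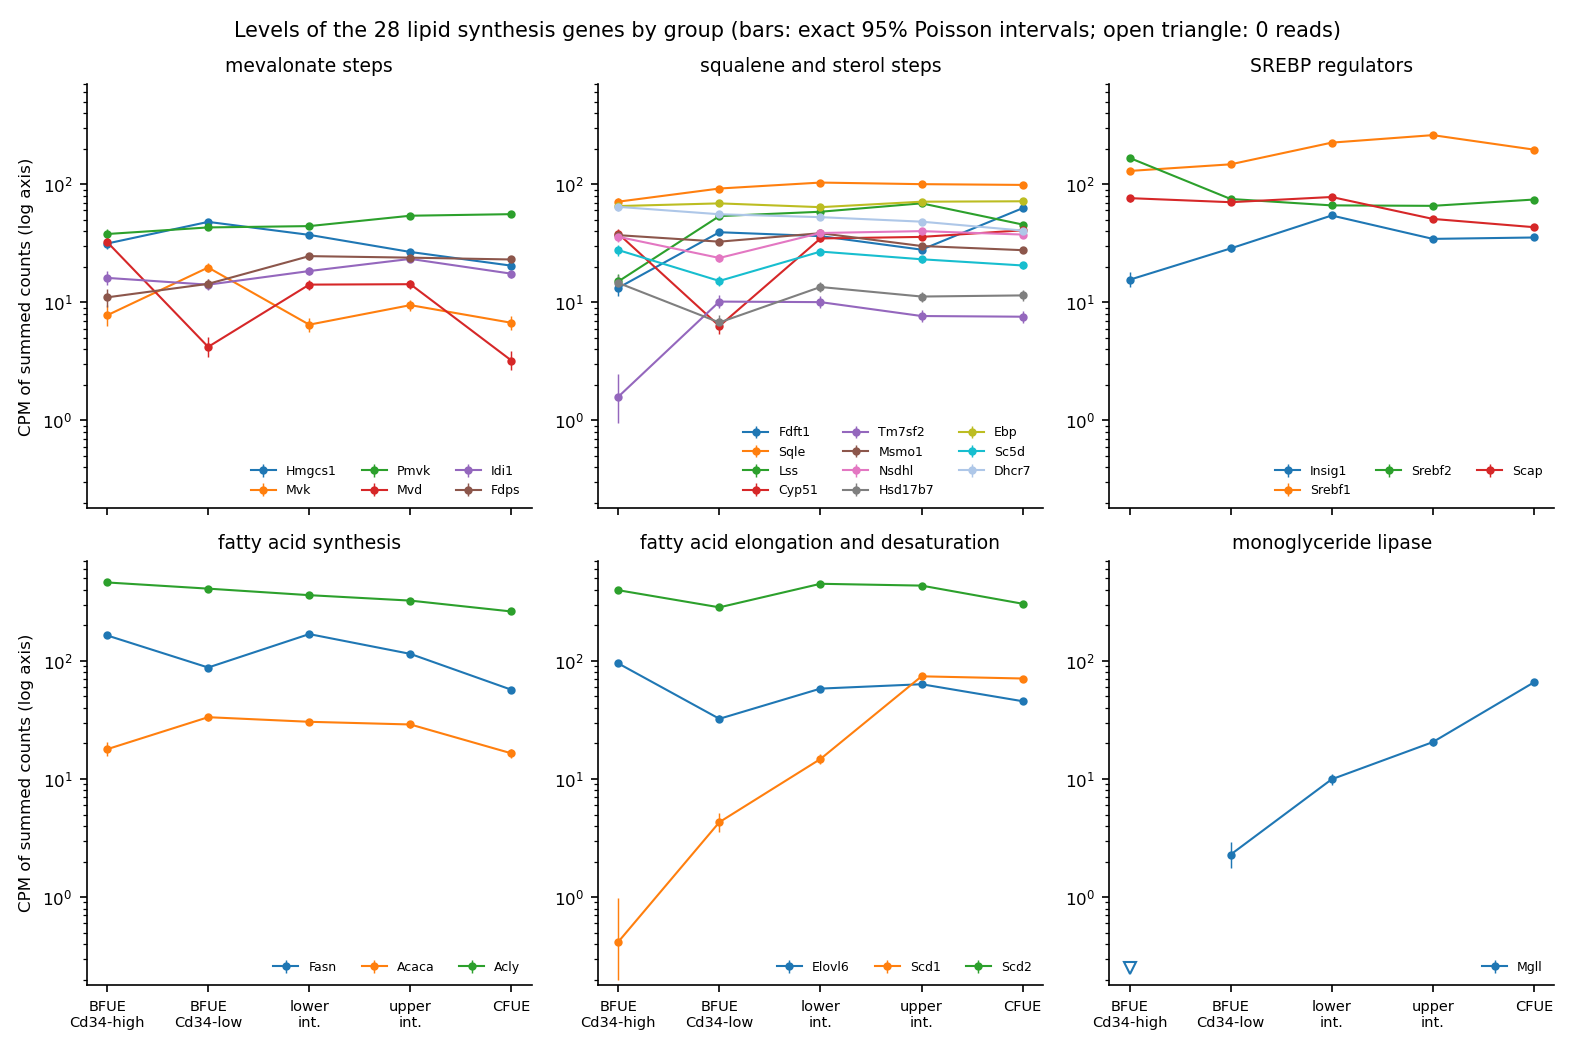
CPM of summed counts (y axis, log scale) of the 28 genes in 5 groups of wells (x axis), by role, with exact 95% Poisson intervals, and an open triangle for 0 reads. Cyp51 stands at 6.30 CPM in Cd34-low BFUE and between 34.8 and 40.8 CPM after it, and Scd1 and Mgll stand far higher in the upper intermediate gate and CFUE than in BFUE.

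Cyp51 (chr5:4081145-4104746), the demethylase of lanosterol, had the largest difference of the cholesterol enzymes between erythroid gates. Summed levels were 6.30 CPM in Cd34-low BFUE, 34.8 in the lower and 35.8 in the upper intermediate gate and 40.8 CPM in CFUE. CFUE wells ran between 0 and 119.7 CPM with a median of 36.8 CPM, and 20 of 23 had a read, also after thinning. Cd34-low BFUE wells ran between 0 and 46.3 CPM with a median of 0.658 CPM, and 9 of 15 had a read, or 5 after thinning. In that group 53.3% of the Cyp51 reads lay in well G3, without which the 2 folds given next were 10.98 and 12.9. The lower intermediate gate was 5.52-fold higher than Cd34-low BFUE (interval 4.68 to 6.55), and CFUE 6.48-fold higher (5.51 to 7.66). Both calls stood in rows A to D, at log2 ratios of 4.39 and 4.83, and also in rows E to H, at 1.65 and 1.66. Cd34-high BFUE wells, at 38.2 CPM, were 6.06-fold higher than Cd34-low BFUE wells, but in rows E to H the log2 ratio was 0.28.

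Fdft1 (chr14:63145150-63179578), squalene synthase, differed at the last step. It was at 39.3, 36.4 and 27.9 CPM in Cd34-low BFUE and the lower and upper intermediate gates and at 62.8 CPM in CFUE. The median CFUE well had 75.6 CPM and the median upper intermediate well 25.7 CPM, with highest wells at 104 and 73.05 CPM and lowest wells at 0 CPM in both. CFUE was 2.25-fold higher than the upper intermediate gate (interval 2.08 to 2.42), and 1.60-fold higher than Cd34-low BFUE (1.48 to 1.72), where 28.5% of Fdft1 reads lay in well A2. Without that well the log2 ratio to Cd34-low BFUE was 1.08, against 0.68 with it. The mean of per-well CPM gave 0.48, short of 1.5-fold, and so did the sums without well D3, at 1.37-fold. Fdft1 shares 18.3% of its exonic bases with Ctsb on the opposite strand, and the strand setting of the counting is not known here.

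Several enzymes after lanosterol had intermediate-gate levels above those of Cd34-low BFUE. Nsdhl, a dehydrogenase in the removal of the methyl groups, was at 38.7 CPM in the lower intermediate gate and 23.8 CPM in Cd34-low BFUE. Hsd17b7, the ketone reductase of the same sequence, was at 13.5 CPM in the lower intermediate gate and 6.75 CPM in Cd34-low BFUE. The desaturase Sc5d was at 26.9 CPM in the lower intermediate gate and 15.2 CPM in Cd34-low BFUE. Hsd17b7 was 1.5-fold or more higher in all 8 recomputations. Sc5d was not in rows E to H, at 0.12 on the log2 scale, and Nsdhl was not by the mean of per-well CPM or in rows E to H, at 0.49 and 0.58, nor without well D3, at 1.39-fold.

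Lss, the cyclase that makes lanosterol, was at 53.8 CPM in Cd34-low BFUE, 58.5 and 69.0 in the intermediates and 45.6 CPM in CFUE. CFUE was 1.51-fold lower than the upper intermediate gate (interval 1.42 to 1.61), close to the limit of 1.5-fold. That call was lost in 3 of 8 recomputations, the one without well D10 among them. It was also lost with any of 23 of the 47 single wells left out. The epoxidase Sqle ranged between 71.2 and 103 CPM over the 5 groups, the isomerase Ebp between 64.01 and 71.8, the oxidase Msmo1 between 27.7 and 38.5, and the sterol reductase Dhcr7 between 40.6 and 64.4 CPM, all without a call. Tm7sf2, another sterol reductase, was at 7.56 CPM in CFUE and 10.1 CPM in Cd34-low BFUE, and shares 12.1% of its exonic bases with Vps51. Per kilobase of exon, Pmvk and Ebp were the highest of the 17 enzymes in CFUE, at 32.6 and 31.1 RPKM, which is CPM per kilobase of exon, and Tm7sf2 and Mvd the lowest, at 1.72 and 1.73 RPKM.

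Summed over the 17 cholesterol enzymes, levels differed little. They were 548 CPM in Cd34-low BFUE, 623 in the lower and 616 in the upper intermediate gate and 592 CPM in CFUE. Median wells were at 509, 601, 629 and 602 CPM. The 3 palmitate enzymes were lowest in CFUE, at 531, 559.9, 468 and 336 CPM, with median wells at 471, 545, 453 and 328 CPM. Lowest and highest wells were 9.50 and 573 CPM in CFUE, and 314 and 908 CPM in Cd34-low BFUE, so the wells overlapped.

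**Figure D2:**
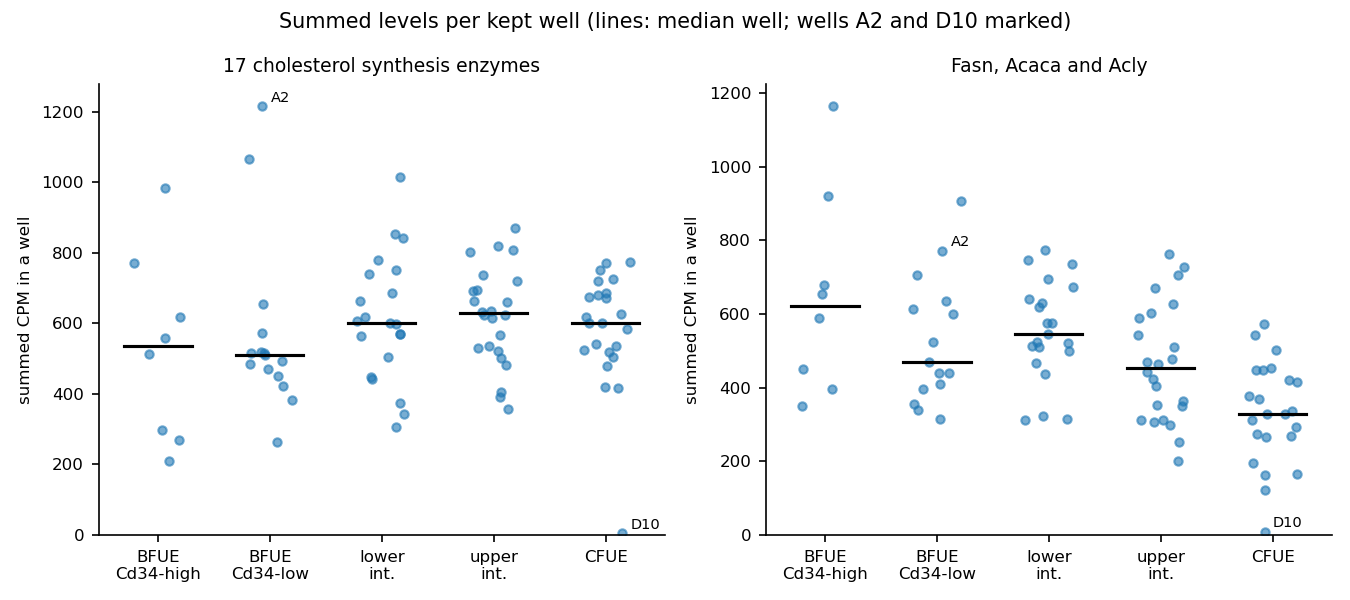
Summed CPM per well (y axis) of the 17 cholesterol enzymes on the left and of Fasn, Acaca and Acly on the right, in 5 groups (x axis), each point a cell and each line the median well. Median wells of the cholesterol enzymes lie between 509 and 629 CPM, those of the palmitate enzymes end at 328 CPM in CFUE, and wells A2 and D10 are marked.

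Among the regulators, Insig1 (chr5:28071363-28078662), the sterol-dependent brake on Scap, was highest in the lower intermediate gate. It had 28.6 CPM in Cd34-low BFUE, 54.4 and 34.5 in the lower and the upper intermediate gate and 35.4 CPM in CFUE. Lower intermediate wells ran between 0 and 192 CPM with a median of 33.1 CPM, and Cd34-low BFUE wells between 0 and 86.7 CPM with a median of 23.2 CPM. The lower intermediate gate was 1.90-fold higher than Cd34-low BFUE (interval 1.74 to 2.08), and by 1.5-fold or more in all 8 recomputations. The upper gate was 1.58-fold lower than the lower one (1.47 to 1.70), but median wells stood at 38.4 and 33.1 CPM in the opposite order, and 3 of 7 recomputations left the ratio short of 1.5-fold, as did leaving out lower intermediate well C4, at 1.38-fold.

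Srebf1 was at 148 CPM in Cd34-low BFUE, 225 and 261 CPM in the intermediates and 197 CPM in CFUE, and was the most abundant of the 4 regulators per kilobase in these groups (34.9 RPKM in CFUE). Srebf2, whose protein acts mainly on cholesterol genes, differed little between Cd34-low BFUE, at 75.1 CPM, and the later gates, at 66.3, 65.7 and 74.3 CPM. Cd34-high BFUE wells had 167 CPM of it, 2.23-fold more than Cd34-low wells (interval 2.09 to 2.37). Scap, the escort of the SREBPs, was at 70.5 CPM in Cd34-low BFUE, 78.04 and 50.9 in the lower and upper intermediate gate and 43.3 CPM in CFUE. CFUE was 1.63-fold lower than Cd34-low BFUE (interval 1.52 to 1.74), with -1.33 on the log2 scale in rows E to H and -0.23 in rows A to D, and 1.34-fold without BFUE well E1.

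Of the palmitate enzymes, Fasn (chr11:120805846-120824547), fatty acid synthase, was lowest in CFUE. From Cd34-low BFUE onwards it peaked in the lower intermediate gate, and Cd34-high BFUE wells had 1.87-fold more Fasn than Cd34-low wells. It had 87.9 CPM in Cd34-low BFUE, 169 and 115 CPM in the lower and upper intermediate gate and 57.003 CPM in CFUE. CFUE wells held between 0.675 and 136 CPM with a median of 48.1 CPM, upper intermediate wells between 17.2 and 316 CPM with a median of 94.999 CPM, and lower intermediate wells between 53.96 and 367 CPM with a median of 146 CPM. The groups overlapped, with the lowest lower intermediate well above the CFUE median. CFUE was 2.01-fold lower than the upper intermediate gate (interval 1.91 to 2.12), at -0.87 on the log2 scale in rows A to D, and at -1.17 in rows E to H. The lower intermediate gate was 1.92-fold higher than Cd34-low BFUE (1.83 to 2.02). CFUE against Cd34-low BFUE was 1.54-fold lower (1.45 to 1.64), but turned round in rows A to D, where the log2 ratio was 0.20, and was short of 1.5-fold with any of 11 single wells left out.

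Acly, which splits citrate into acetyl-CoA, was the most abundant of the 3 per kilobase, at 49.7 RPKM in CFUE. Its levels were 409.6, 361, 324 and 262 CPM in Cd34-low BFUE, the lower and the upper intermediate gate and CFUE, and every adjacent step was within 1.5-fold. CFUE was 1.56-fold lower than Cd34-low BFUE (interval 1.52 to 1.61), and short of 1.5-fold in 3 of 9 recomputations and without well D3, at 1.47-fold. Acaca, which carboxylates acetyl-CoA to malonyl-CoA, was at 33.4, 30.5, 28.96 and 16.5 CPM in the same order. CFUE was 1.76-fold lower than the upper intermediate gate (1.59 to 1.95) and 2.02-fold lower than Cd34-low BFUE (1.82 to 2.25). The second call stood in all 9 recomputations, while in rows E to H the first was at -0.45 on the log2 scale, short of 1.5-fold.

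**Figure D3:**
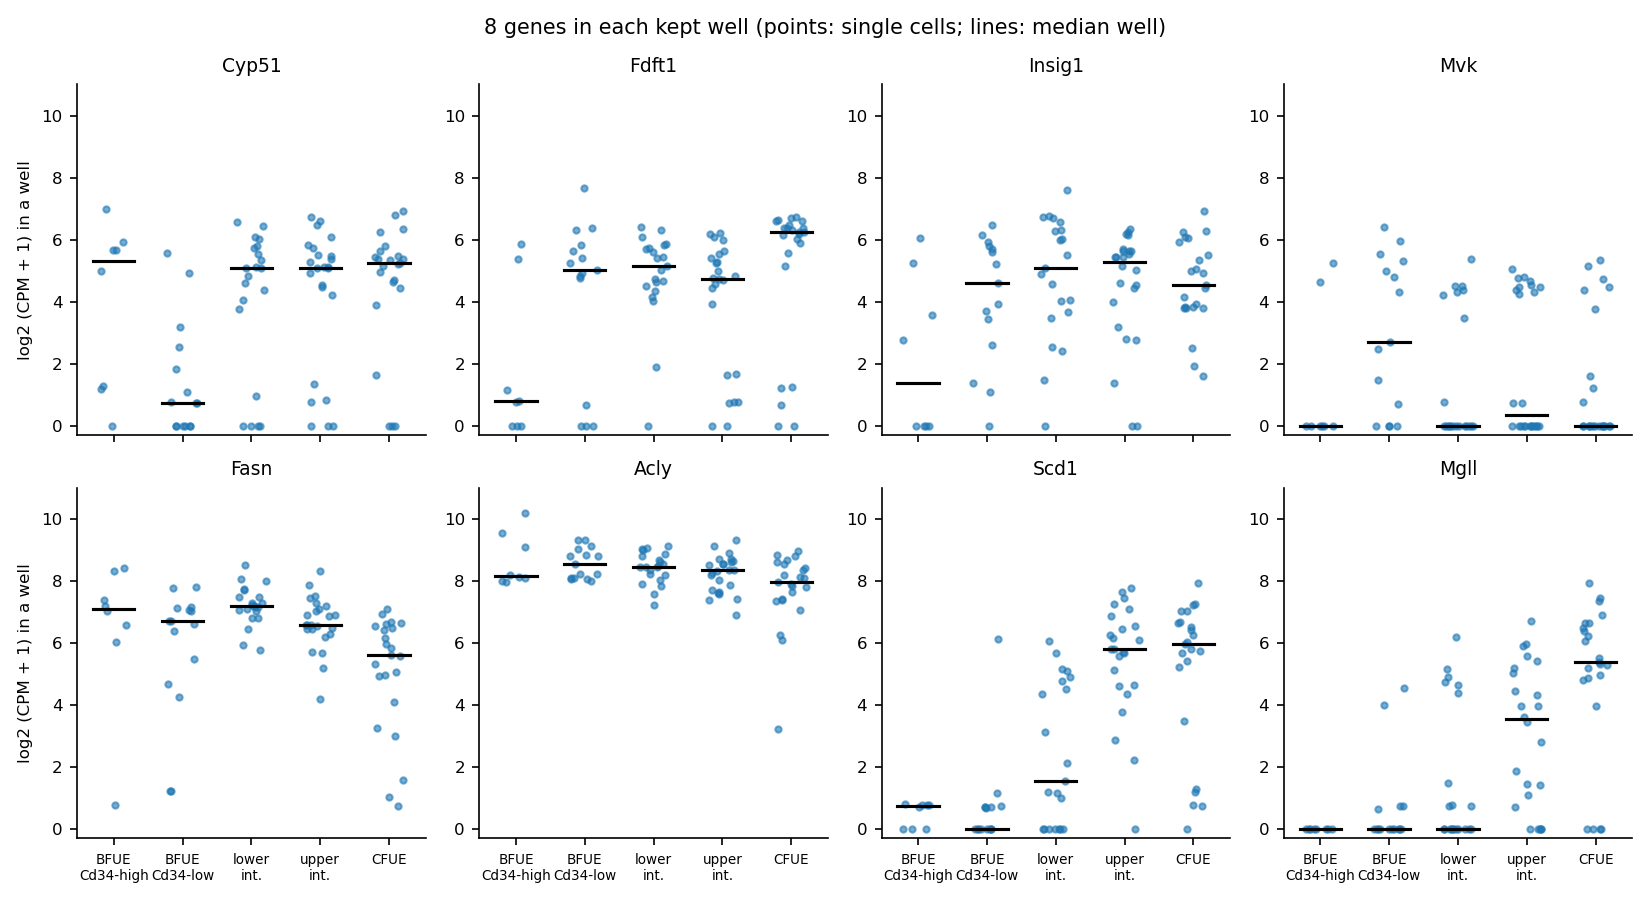
Level of 8 genes in each kept well, as log2 of CPM plus 1 (y axis), in 5 groups (x axis), each point a cell and each line the median well. Fdft1 stands at a median of 75.6 CPM in CFUE, the Fasn median is lowest in CFUE, and Scd1 and Mgll have a median of 0 CPM in Cd34-low BFUE.

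Elovl6, an elongase of palmitate, was at 32.4 CPM in Cd34-low BFUE and 58.3, 63.5 and 45.6 CPM in the later gates, and the lower intermediate gate was 1.80-fold higher than Cd34-low BFUE (interval 1.66 to 1.96) and by 1.5-fold or more in all 8 recomputations. Scd2 and Scd1 encode stearoyl-CoA desaturases, which make monounsaturated fatty acids. Scd2 was abundant throughout, at 284, 450.2, 435 and 305 CPM in Cd34-low BFUE, the lower and the upper intermediate gate and CFUE. It had a read in all 91 kept wells.

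Scd1 (chr19:44394455-44407879) was nearly absent at the start. It had 4.31 CPM in Cd34-low BFUE, 14.8 and 74.1 CPM in the lower and upper intermediate gate and 70.99 CPM in CFUE. In Cd34-low BFUE 93.8% of its reads lay in well B3, at 69.5 CPM, and the median well had 0 CPM. Medians were 1.89 CPM in lower intermediate wells, 55.02 in upper ones and 61.05 CPM in CFUE wells, with the highest wells at 66.2, 216 and 244 CPM. The upper intermediate gate was 5.01-fold higher than the lower one (interval 4.54 to 5.55), at 2.89 on the log2 scale in rows A to D, and at 1.85 in rows E to H. CFUE and the upper intermediate gate were within 1.5-fold of each other. Per kilobase, Scd1 reached 14.5 RPKM in CFUE, against 55.8 RPKM for Scd2.

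Mgll (chr6:88724412-88828360) encodes the lipase that releases a fatty acid from monoglycerides and degrades the endocannabinoid lipid 2-arachidonoylglycerol. It had 2.29 CPM in Cd34-low BFUE, 9.95 and 20.5 CPM in the lower and upper intermediate gate and 65.8 CPM in CFUE. A median well held 0, 0, 10.7 and 41.2 CPM in that order, and reads were present in 19 of 23 CFUE wells and 5 of 15 Cd34-low BFUE wells, or in 19 and 2 after thinning. In the 8 Cd34-high BFUE wells no read of it was found. A rough upper limit, 3 over the number of wells, is 37.5% of wells with a read. That limit takes cells as independent draws and covers no spread between animals. The upper intermediate gate was 2.06-fold higher than the lower one (interval 1.81 to 2.36) and CFUE 3.21-fold higher than the upper one (2.95 to 3.49).

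Scd1 and Mgll were not always high in the same cells. At 10 CPM or more, 15 of 23 CFUE wells had both, 3 Scd1 alone, 4 Mgll alone and 1 neither. In the upper intermediate gate 11 of 24 wells had both, 10 Scd1 alone, 2 Mgll alone and 1 neither, and in the lower one 5 of 21 had both and 12 neither. Of 15 Cd34-low BFUE wells 0 had both. CFUE well D10, at 129.8 CPM of Scd1, was among those without Mgll.

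**Figure D4:**
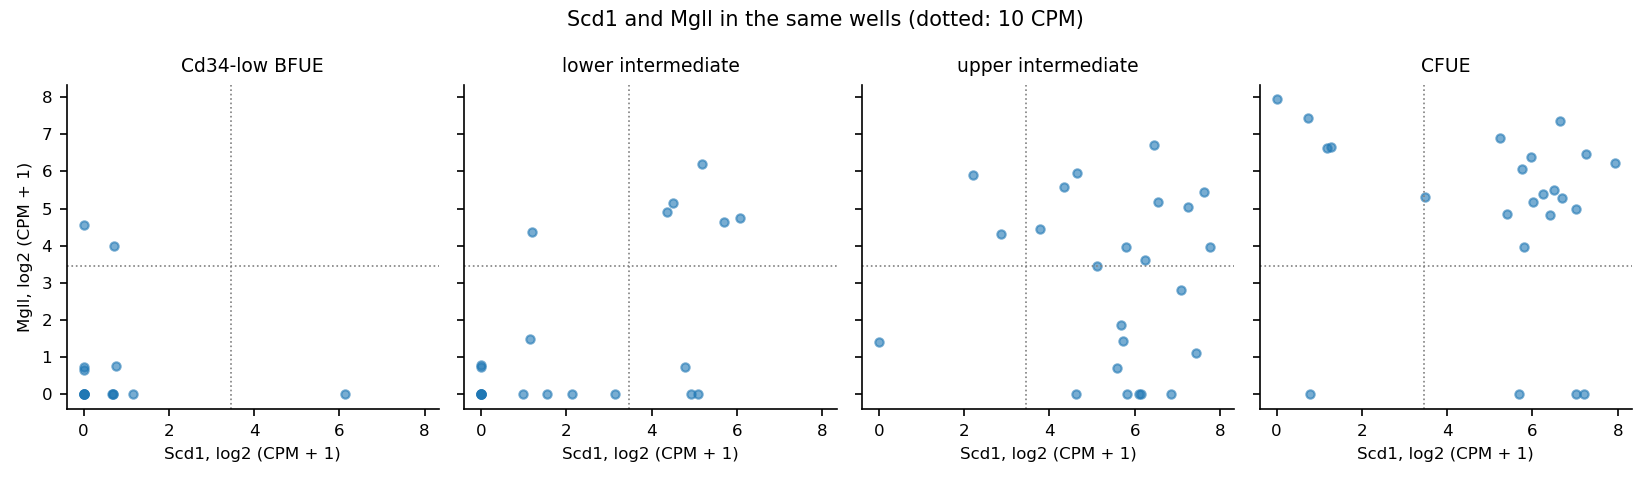
Scd1 (x axis) and Mgll (y axis) in each well, as log2 of CPM plus 1, in 4 groups, with dotted lines at 10 CPM. The upper right quadrant holds 0 of 15 Cd34-low BFUE wells, 5 of 21 lower intermediate, 11 of 24 upper intermediate and 15 of 23 CFUE wells.

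The Cd34-high BFUE wells, with higher sums of myeloid and lymphoid markers, differed from Cd34-low wells in the pathway about as often as in all genes. Against Cd34-low wells 8 of 26 genes were higher (Mvd, Cyp51, Nsdhl, Hsd17b7, Sc5d, Srebf2, Fasn and Elovl6), where 30.4% of all genes were, and 7 were lower (Hmgcs1, Mvk, Fdft1, Lss, Tm7sf2, Insig1 and Acaca), where 25.4% were. The cyclase Lss was at 15.03 CPM in Cd34-high wells and 53.8 CPM in Cd34-low wells, 3.58-fold lower in the Cd34-high wells (interval 3.06 to 4.20). Median wells had 0.980 CPM of Lss in the Cd34-high and 46.3 CPM in the Cd34-low group. Fdft1 was at 13.3 CPM in Cd34-high and 39.3 CPM in Cd34-low wells, 2.96-fold lower (2.50 to 3.52). Elovl6 was at 95.3 CPM in Cd34-high and 32.4 CPM in Cd34-low wells, 2.94-fold higher (2.69 to 3.22), but by 0.43 on the log2 scale in rows A to D. With single wells left out, Lss was from 3.08-fold lower (without well E3) to 5.46-fold lower (without well H2). Fdft1 was from 2.24-fold lower (without Cd34-low well A2) to 5.56-fold lower (without Cd34-high well C1). Mvd was 7.74-fold higher (6.25 to 9.65), 4.98-fold without well B2 and 16.2-fold without well A1, with reads in 4 of 8 Cd34-high wells and 3 of 15 Cd34-low wells. Among the other calls, Hmgcs1 was lost with any of 10 of the 23 single wells left out, at 1.28-fold without well D3. Nsdhl was lost with any of 8 of them, at 1.17-fold without well H2. Hsd17b7 was lost with either of 2, at 1.01-fold without well H2, and Sc5d without well F1, at 1.09-fold. Cyp51 was 4.28-fold higher without well B2 and 12.05-fold higher without well G3.

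A second list held 36 other genes of sterol and fatty acid metabolism. In the lower intermediate gate against Cd34-low BFUE, 6 of 24 measured were higher (25.0%, against 9.54% of all genes) and 3 lower (12.5%, against 17.7%). The desaturase Fads2 was at 103 CPM in the lower intermediate gate and 32.5 CPM in Cd34-low BFUE, 3.16-fold higher. Mbtps2, a protease that cleaves SREBPs, and Insig2 were 1.60-fold and 1.59-fold higher, but 1.43-fold and 1.36-fold without well D3. Mbtps2 shares 28.4% of its exonic bases with Yy2 on the same strand, so its count is uncertain. The lower ones were the sterol exporter Abcg1, the lysosomal cholesterol carrier Npc1 and the hormone-sensitive lipase Lipe. Abcg1 was at 75.9 CPM in Cd34-low BFUE, 7.92 and 1.24 CPM in the lower and upper intermediate gates and 1.02 CPM in CFUE, and 152 CPM in Cd34-high BFUE. In CFUE 80.6% of the Abcg1 reads lay in well C10. Median wells had 0 CPM in CFUE and 30.2 CPM in Cd34-low BFUE.

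In CFUE against Cd34-low BFUE, 4 of 24 other genes were higher (16.7%, against 13.6% of all genes) and 7 lower (29.2%, against 24.9%), shares near those of all genes. The higher ones included the desaturases Fads2 (2.77-fold) and Fads1 (2.08-fold) and Insig2 (1.95-fold). The lower ones with the largest ratios were Abcg1 (74.7-fold, and 369-fold without CFUE well C10), Npc1 (3.34-fold), Lipe (2.94-fold) and the sterol carrier Stard4 (2.53-fold). Against all BFUE wells 4 of 24 were higher (16.7%, against 13.7% of all genes) and 8 lower (33.3%, against 29.6%). Between the intermediates 1 of 22 was higher in the upper gate (Acat2, 1.59-fold), where 7.34% of all genes were, and 3 were lower (13.6%, against 9.27%), among them Abhd12 (1.79-fold) and Mbtps2 (1.70-fold). In CFUE against the upper intermediate gate 1 of 22 was higher (Insig2), where 7.98% of all genes were, and 4 were lower (18.2%, against 9.70%), among them Stard4, at 20.3 CPM in CFUE and 38.6 CPM in the upper intermediate gate. In Cd34-high against Cd34-low BFUE 15 of 27 were higher (55.6%, against 30.4% of all genes) and 8 lower (29.6%, against 25.4%), led among the lower ones by the acetyl-CoA synthetase Acss2, at 8.60 CPM in Cd34-high wells, 94.2% of it in well H2, and 149 CPM in Cd34-low wells. The ratio was 17.3-fold, and 261-fold without well H2.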

How the data were processed

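The authors deposited whole-number read counts per gene for each well, without normalisation. Reads were aligned with STAR 2.4 to GRCm38 and counted with featureCounts, per the submitters' processing notes. For featureCounts the version, the annotation release and the strand setting were not given in the sources used here. Because the file's first line has an extra empty cell, column names were taken in order. Coordinates and exon lengths come from GENCODE M21 (GRCm38), and all 28 genes matched by identifier.

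A well needed at least 50000 reads and at least 1000 genes, which left out 5 of 96 (10596 to 16644 reads). Counts were summed over wells and divided by summed reads, which came to 38184231 in BFUE, 31059327 and 36422769 in the lower and upper intermediate gates and 35454299 in CFUE. The floor for a group without reads was 3 counts, and no ratio was given with both groups at or under it. Well detection was also counted after thinning to 500000 reads. Ratios and intervals were tested on simulated data. Cells are not replicates, so no p-value was computed.

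All 28 genes were named, and other pathway genes at 10 CPM or more and 1.5-fold or more, up to 4 per direction, of which some are not reported here. Genes and lists were chosen with earlier results of these data known, and leaving out wells A2 and D10, each well in turn, or the genes Scd1 and Mgll was added after seeing the data. Alternatives were means of per-well CPM, TMM factors (edgeR 4.0.16), DESeq2 1.42.0 size factors, either set of plate rows (A to D, E to H), no filter on wells or genes, 50 CPM, 2-fold, and no top well. Python 3.11.15, scipy 1.17.1 and R 4.3.3 were used.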

Additional observations from a re-analysis of the deposited data

How the results depend on the processing

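No paired analysis was possible because the replicate numbers only count wells within a gate. Of 146 recounts of the 28 genes, 115 stayed within 1.5 times the reported count. Only the number of genes called was compared, not which genes they were. Recounts without a filter on wells named the same genes in every comparison, as the wells added held few reads. With 50 CPM or more, 11 to 14 genes were measured per comparison. Of 14 in CFUE against BFUE, 3 were higher and 3 lower, where 13.8% and 19.4% of all genes were. Against Cd34-low BFUE 3 of 14 were higher in CFUE and 3 lower, where 11.5% and 16.8% were. In the lower intermediate gate against Cd34-low BFUE 5 of 12 were higher and 0 lower, where 6.21% and 9.48% were. In Cd34-high against Cd34-low BFUE 3 of 11 were higher and 1 lower, where 23.4% and 24.9% were. Between the intermediates 1 of 14 was higher in the upper gate, where 3.31% were. In CFUE against the upper one 2 of 14 were lower, where 3.71% were. At 2-fold, 3 of 27 were lower in CFUE against BFUE, where 19.9% of all genes were. In CFUE against Cd34-low BFUE 3 of 27 were higher and 3 lower, where 6.91% and 14.2% were. In the lower intermediate gate against Cd34-low BFUE 3 of 27 were higher, where 3.72% were. Between the intermediates 0 of 27 were lower in the upper gate, where 3.28% were. In CFUE against the upper one 2 of 26 were lower, where 3.23% were. In Cd34-high against Cd34-low wells 5 of 26 were higher and 4 lower, where 22.4% and 15.1% were. In plate rows A to D, 10 of 26 were higher in CFUE against BFUE, where 18.4% of all genes were. There 5 of 27 were higher and 6 lower in the upper against the lower intermediate gate, where 11.7% and 13.6% were. In CFUE against the upper one 5 of 26 were higher, where 12.7% were. In rows E to H, 8 of 26 were higher in CFUE against BFUE, where 16.1% of all genes were. There 9 of 27 were lower in CFUE against the upper intermediate gate, where 14.999% were. Means of per-well CPM gave 4 of 27 higher in CFUE against Cd34-low BFUE, where 13.9% of all genes were. They gave 1 of 26 lower between the intermediates, where 9.13% were. Without each gene's top well, 2 of 27 were lower in the lower intermediate gate against Cd34-low BFUE, where 16.9% of all genes were. With the same wells left out, 0 of 27 were lower in the upper against the lower intermediate gate, where 10.02% were. Without Scd1 and Mgll, 3 of 25 were higher in CFUE against BFUE, where 13.7% of all genes were. Between the intermediates 0 of 25 were higher (7.34% of all genes), and 1 of 24 in CFUE against the upper one (7.98%). Of single genes, 4 values turned round: Fasn in rows A to D was at 0.0258 on the log2 scale in CFUE against BFUE and 0.20 against Cd34-low BFUE, Hsd17b7 there at -0.0924 in CFUE against Cd34-low BFUE, and Hmgcs1 in rows E to H at 0.058 in Cd34-high against Cd34-low BFUE. The cause was not tested. Genes under about 10 CPM rest on few positive wells, and 1 sample per gate leaves the spread between animals unknown.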
